A study of Mus musculus with 24 samples.

Results

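A set of 8 genes that enterocytes use to take up dietary fat and send it out in lipoproteins was followed across jejunal crypt RNA of mice that had lost Apc, the ribosome assembly gene Nle1 (Notchless), or both. The 8 genes are Fabp1 (ENSMUSG00000054422), Fabp2 (ENSMUSG00000023057), Dgat1 (ENSMUSG00000022555), Mttp (ENSMUSG00000028158), Apob (ENSMUSG00000020609), Apoa4 (ENSMUSG00000032080), Apoa1 (ENSMUSG00000032083) and Apoc3 (ENSMUSG00000032081). They were picked by symbol from a table of 37620 genes, and all 8 passed the filter on low counts, as did 16552 genes in all.

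Polyadenylated RNA of the crypts was sequenced from 24 mice, 1 library per mouse, with 3 mice in each of 8 groups. The genotypes were the double knockout (labelled ApccKO;NlecKO, conditional loss of both genes), ApccKO (conditional loss of Apc), NlecKO (conditional loss of Nle1) and Control, each taken on day 2 or day 1, that is 48 h or 24 h after induction. The labels give the same treatment for all groups, Control included: tamoxifen at 56 mg/kg into the peritoneum on 3 days running, in mice aged 5 to 10 weeks. Crypts came from 5 to 10 cm of jejunum. The sources used here do not give the driver of the recombinase, the alleles carried by Control mice or the strain. The Apc-lost libraries form 1 run of submitters' codes, so that run and Apc loss cannot be told apart within a day.

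Enterocytes take up fatty acids and monoacylglycerol from the gut lumen, rebuild them into triglyceride at the endoplasmic reticulum, load the triglyceride onto apolipoprotein B and release the particles as chylomicrons into lymph. Crypts hold the stem and dividing cells, and the absorptive programme rises as cells mature and leave the crypt for the villus. FABP1 and FABP2 are the cytosolic fatty acid binding proteins of the enterocyte. DGAT1 makes triglyceride from diacylglycerol. MTTP, the large subunit of the microsomal triglyceride transfer protein, lipidates APOB, the scaffold of each chylomicron, and APOA4, APOA1 and APOC3 are exchangeable apolipoproteins that travel on its surface, APOC3 being an inhibitor of triglyceride clearance in blood.

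Depth was 17.86 to 26.47 M estimated counts per library (median 19.82 M). The targeted gene Nle1 averaged 9.80 ± 1.08 CPM in double knockout and 6.69 ± 1.02 CPM in NlecKO crypts on day 2, against 34.9 ± 1.14 in ApccKO and 22.7 ± 4.50 in Control crypts (SD, n = 3 each). CPM are estimated counts scaled to the same library size. Apc averaged 135 ± 5.78 CPM in ApccKO and 134 ± 19.6 CPM in Control crypts on day 2, so counts over the whole gene do not check the label of the Apc-lost groups. Markers of absorptive cells were present in every group of crypts: 22 enterocyte markers outside lipid handling, such as the lactase gene Lct and the sucrase-isomaltase gene Sis, summed to 4692 to 7242 CPM in double knockout, 2762 to 4046 in ApccKO, 25270 to 33890 in NlecKO and 9727 to 31030 in Control libraries on day 2.

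Upstream sequence of RefSeq genes (GRCm38.p6) was matched for 6 of the 8 genes, all but Apoc3 and Dgat1. The 250 bases before the start of Apoa4, Fabp2 and Apob are shown, 1 gene each for the exchangeable apolipoproteins, the fatty acid binding proteins and the chylomicron scaffold, because the stretches hold a core motif of the HNF4 nuclear receptors, well-studied activators of apolipoprotein and enterocyte genes. The motif searched was CAAAGNNC on both strands, chosen after the sequences and the results were seen, and capitals mark its matches, of which adjoining ones are written as 1 block.
Apoa4, chr9:46240594-46240843, plus strand: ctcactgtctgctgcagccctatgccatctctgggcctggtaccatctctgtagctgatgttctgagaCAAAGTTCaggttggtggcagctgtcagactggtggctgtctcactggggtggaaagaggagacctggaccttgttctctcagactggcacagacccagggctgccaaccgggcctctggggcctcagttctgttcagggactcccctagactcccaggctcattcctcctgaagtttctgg
Fabp2, chr3:122894822-122895071, plus strand: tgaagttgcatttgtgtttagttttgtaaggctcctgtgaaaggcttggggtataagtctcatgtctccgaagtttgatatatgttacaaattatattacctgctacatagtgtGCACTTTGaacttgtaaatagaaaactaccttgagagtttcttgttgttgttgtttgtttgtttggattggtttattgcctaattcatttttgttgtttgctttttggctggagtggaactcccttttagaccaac
Apob, chr12:7977427-7977676, plus strand: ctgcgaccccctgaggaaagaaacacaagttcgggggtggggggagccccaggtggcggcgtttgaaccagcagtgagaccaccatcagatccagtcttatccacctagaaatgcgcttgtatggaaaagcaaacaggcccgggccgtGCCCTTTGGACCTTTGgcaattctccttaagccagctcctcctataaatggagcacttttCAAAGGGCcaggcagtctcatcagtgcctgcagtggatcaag
The match began 182 bases before the start of Apoa4, 136 before that of Fabp2, and 102, 94 and 42 before that of Apob. Fabp1, not shown, had 1 match, 205 bases before its start, and the windows of Mttp and Apoa1 had none, which says only that these letters are not in them. Of 32851 promoter windows of this length, 5052 (15.38%) held the motif. A match is a description of letters and not of binding.

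With Nle1 present, the whole set was lower in Apc-lost crypts on day 2. In ApccKO crypts the mean level was 9.39% of Control for Mttp, 9.40% for Fabp2, 9.49% for Fabp1, 13.9% for Apoa1, 14.6% for Dgat1, 14.7% for Apoc3, 16.9% for Apoa4 and 23.9% for Apob. All 8 genes fell with an adjusted p under 0.05 (edgeR's quasi-likelihood test, Benjamini-Hochberg adjustment over the 16552 genes), where 29.4% of all tested genes were called lower. The median log2 fold change was -2.81 over the 8 genes and 0.02 over all genes. For each of the 8, every ApccKO library lay below every Control library, as was true of 31.1% of all genes. In bulk RNA of this kind, fewer enterocytes and less RNA per enterocyte cannot be told apart.

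The same direction was seen where Nle1 was lost as well. Against NlecKO crypts, double knockout crypts on day 2 held between 11.4% (Apoa1) and 34.5% (Apob) of the mean level, and all 8 genes fell, where 22.2% of all genes were called lower. The median log2 fold change over the 8 genes was -2.56. No double knockout library reached the level of any NlecKO library for any of the 8 genes, as was the case for 27.1% of all genes. On day 1 every Apc-lost library was also below every library of its Apc-intact counterpart for all 8 genes, in ApccKO against Control (29% of all genes) and in the double knockout against NlecKO (27% of all genes). Of the 8, 6 fell in ApccKO against Control on day 1, where 25% of genes were called lower, and 7 fell in the double knockout against NlecKO, where 24.4% were.

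**Figure D1:**
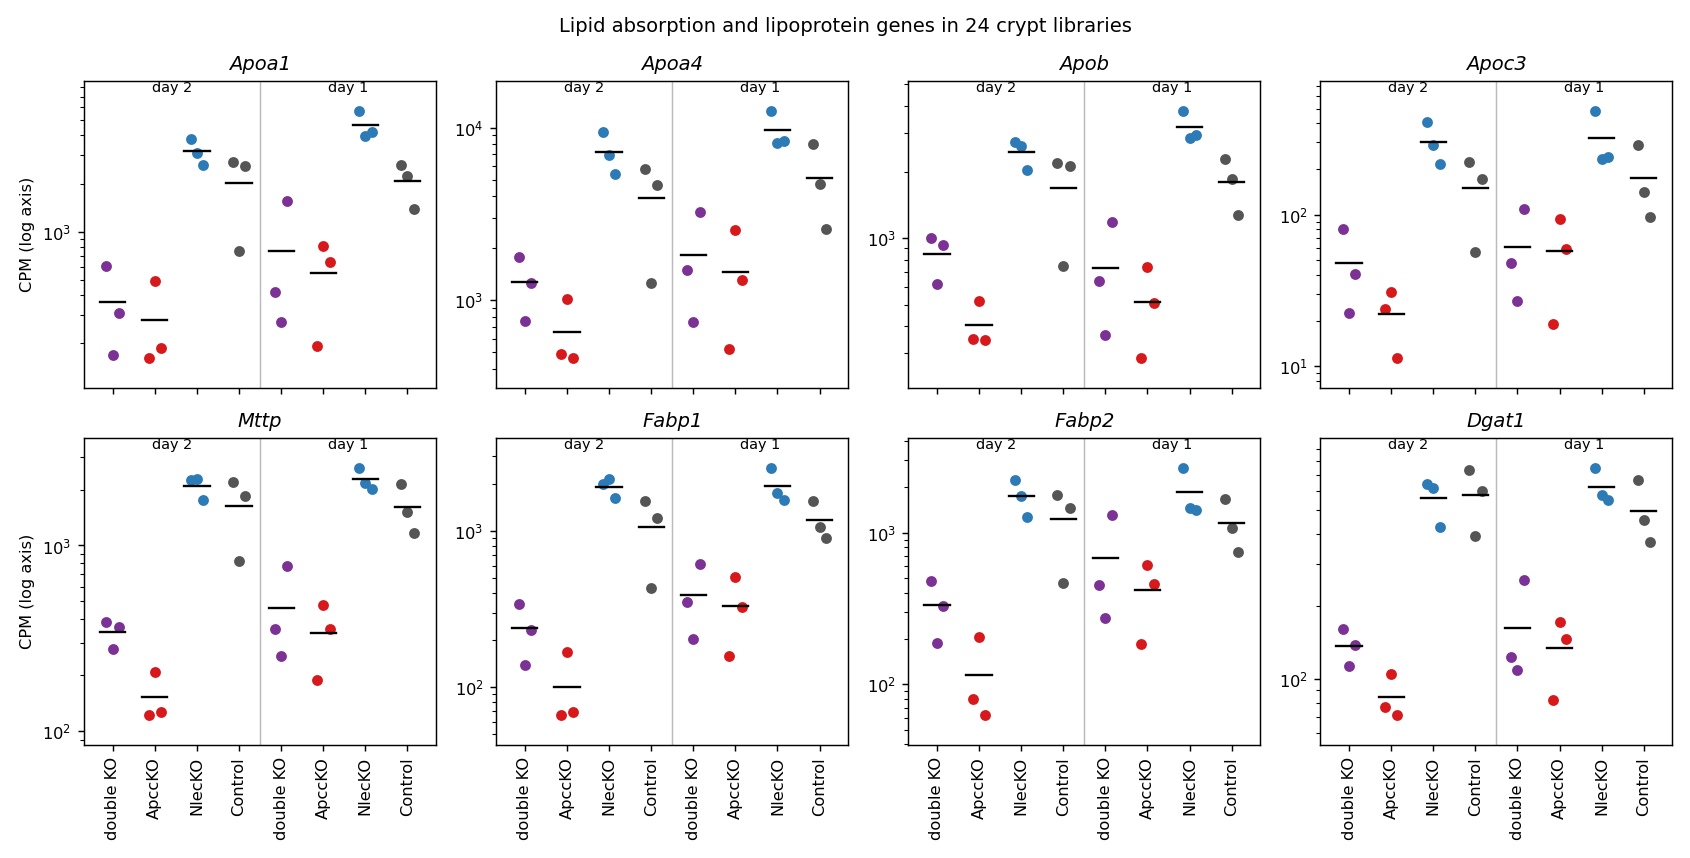
CPM (log axis) of the 8 genes in each of the 24 libraries, by genotype and day; each point is 1 mouse and each bar a group mean. For all 8 genes the day 2 ApccKO group has the lowest mean and the day 1 NlecKO group the highest.

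The fatty acid binding proteins were, with Mttp, the members with the largest fold changes in ApccKO against Control on day 2. Fabp1 had 342, 138 and 233 CPM in double knockout, 66.5, 167 and 69.5 CPM in ApccKO, 1988, 2146 and 1629 CPM in NlecKO and 1557, 434 and 1204 CPM in Control libraries. Every Apc-lost value was below every Apc-intact value, with Control replicate 2 closest. Fabp1 fell by 3.40 ± 0.57 on the log2 scale (SE, adjusted p = 7.5e-05, edgeR) in ApccKO against Control and fell by 3.01 ± 0.56 (adjusted p = 0.00034) in the double knockout against NlecKO. Fabp2 had 476, 187 and 328 CPM in double knockout, 80.4, 204 and 62.6 CPM in ApccKO, 2236, 1758 and 1263 CPM in NlecKO and 1773, 464 and 1450 CPM in Control libraries. The highest double knockout library overlapped Control replicate 2, while the ApccKO libraries stayed apart from all Control libraries. Fabp2 fell by 3.41 ± 0.69 (adjusted p = 0.00043) in ApccKO against Control and fell by 2.41 ± 0.66 (adjusted p = 0.0064) in the double knockout against NlecKO. In ApccKO against Control its change was -4.10 without ApccKO replicate 2, and -4.10 to -3.05 over all single libraries left out.

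On day 1 Fabp1 fell with Apc loss in both Nle1 states, while Fabp2 was lower in both and passed in neither by edgeR. Fabp1 had 349, 204 and 613 CPM in double knockout, 158, 507 and 324 in ApccKO, 2544, 1750 and 1570 in NlecKO and 1552, 1062 and 903 in Control libraries. Fabp1 fell by 1.83 ± 0.54 (adjusted p = 0.0093, edgeR) in ApccKO against Control and fell by 2.33 ± 0.55 (adjusted p = 0.0018) in the double knockout against NlecKO. Without ApccKO replicate 1, Fabp1 had a log2 change of -1.47 in ApccKO against Control (adjusted p = 0.052). Fabp2 had 453, 273 and 1308 CPM in double knockout, 184, 614 and 458 in ApccKO, 2685, 1465 and 1418 in NlecKO and 1667, 1077 and 750.1 in Control libraries. Fabp2 was the one member that passed in neither genotype on this day, with log2 changes of -1.48 ± 0.64 (adjusted p = 0.065) in ApccKO against Control and -1.45 ± 0.64 (adjusted p = 0.066) in the double knockout against NlecKO. By DESeq2 it passed in ApccKO against Control (adjusted p = 0.041) and in the double knockout against NlecKO (adjusted p = 0.038). Without double knockout replicate 3, whose Fabp2 level was nearly that of the lowest NlecKO library, the change against NlecKO was -2.35 (adjusted p = 0.0095). Over all single libraries left out it ranged from -2.35 to -1.06.

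Dgat1, the triglyceride synthesis enzyme, and Mttp, which loads triglyceride onto APOB, gave the smallest adjusted p values of the 8 genes. Dgat1 had 161, 113 and 138 CPM in double knockout, 76.9, 105 and 71.1 in ApccKO, 644, 619 and 428 in NlecKO and 738, 391 and 600.4 in Control libraries on day 2. Mttp had 387, 276 and 363 CPM in double knockout, 122, 209 and 128 in ApccKO, 2263, 2267 and 1758 in NlecKO and 2202, 829 and 1857 in Control libraries on day 2. For both genes the Apc-lost and the Apc-intact libraries were fully separate on this day, the nearest being Control replicate 2. Dgat1 fell by 2.78 ± 0.36 (adjusted p = 4.2e-06, edgeR) in ApccKO against Control and fell by 2.04 ± 0.35 (adjusted p = 0.00014) in the double knockout against NlecKO. Mttp fell by 3.41 ± 0.45 (adjusted p = 5.5e-06) in ApccKO against Control and fell by 2.61 ± 0.43 (adjusted p = 0.00012) in the double knockout against NlecKO. On day 1 the log2 changes in ApccKO against Control were -1.90 ± 0.35 for Dgat1 (adjusted p = 0.00027) and -2.25 ± 0.43 for Mttp (adjusted p = 0.00039). Against NlecKO, the double knockout had changes of -1.94 ± 0.35 for Dgat1 (adjusted p = 0.00019) and -2.30 ± 0.43 for Mttp (adjusted p = 0.00027), that of Mttp being -2.90 without double knockout replicate 3. Of the 31-base words in Mttp transcripts 8.13% also occur in Trmt10a or Gm43691 (GENCODE M21), so a share of its counts could come from them.

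Apob, the structural protein that stays with a chylomicron for its whole life, had the smallest fold change of the 8 with Apc loss on day 2. It had 1000, 623 and 931 CPM in double knockout, 348, 521 and 344 in ApccKO, 2744, 2621 and 2041 in NlecKO and 2188, 748 and 2133 in Control libraries. ApccKO libraries were all below Control, while Control replicate 2 fell inside the double knockout range. The log2 changes on day 2 were -2.06 ± 0.44 (adjusted p = 0.00069, edgeR) in ApccKO against Control and -1.54 ± 0.44 (adjusted p = 0.0077) in the double knockout against NlecKO. On day 1 Apob had 642, 365 and 1190 CPM in double knockout, 286, 738 and 509 in ApccKO, 3795, 2845 and 2939 in NlecKO and 2284, 1856 and 1271 in Control libraries. The log2 changes were then -1.82 ± 0.44 (adjusted p = 0.0026) in ApccKO against Control and -2.13 ± 0.44 (adjusted p = 0.00073) in the double knockout against NlecKO.

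The 3 exchangeable apolipoproteins also fell on day 2 with Apc loss in both Nle1 states. Apoa4 had 1780, 764 and 1264 CPM in double knockout, 492, 1022 and 464 in ApccKO, 9459, 6906 and 5417 in NlecKO and 5788, 1253 and 4640 in Control libraries on day 2. Apoa1 had 607, 170.2 and 312 CPM in double knockout, 162, 491 and 188 in ApccKO, 3780, 3128 and 2629 in NlecKO and 2728, 760.2 and 2583 in Control libraries. Apoc3 had 80.1, 22.3 and 40.7 CPM in double knockout, 24.0, 30.8 and 11.3 in ApccKO, 405, 286 and 216 in NlecKO and 222, 56.5 and 172 in Control libraries. In all 3 genes Control replicate 2 lay far below the other Control libraries, yet above every ApccKO library. In ApccKO against Control, Apoa4 fell by 2.56 ± 0.67 (adjusted p = 0.0034, edgeR), Apoa1 fell by 2.85 ± 0.72 (adjusted p = 0.0025) and Apoc3 fell by 2.76 ± 0.71 (adjusted p = 0.0031). Without ApccKO replicate 2, the highest of its group, Apoa1 fell by 3.52. Over all single libraries left out its change ranged from -3.52 to -2.57. Set against NlecKO crypts, Apoa4 in the double knockout fell by 2.52 ± 0.67 (adjusted p = 0.0052), Apoa1 fell by 3.13 ± 0.73 (adjusted p = 0.0019) and Apoc3 fell by 2.66 ± 0.70 (adjusted p = 0.005). Without double knockout replicate 1, the highest of that group, Apoa1 fell by 3.72 and Apoc3 fell by 3.26. Over all single libraries left out, the smallest changes were -2.78 for Apoa1 and -2.31 for Apoc3.

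On day 1 the spread of these apolipoproteins within groups was wide. Apoa1 had 421, 273 and 1566 CPM in double knockout, 193, 812 and 649 in ApccKO, 5717, 3947 and 4228 in NlecKO and 2619, 2222 and 1390 in Control libraries. Double knockout replicate 3 stood well above its group and within the Control range. In ApccKO against Control the changes were -1.91 ± 0.69 for Apoa1 (adjusted p = 0.029, edgeR), -1.80 ± 0.65 for Apoa4 (adjusted p = 0.03) and -1.62 ± 0.68 for Apoc3 (adjusted p = 0.057), so that Apoc3 did not pass, though it did by DESeq2 (adjusted p = 0.03). The number of the 8 genes that fell was 3 without ApccKO replicate 1, 4 without ApccKO replicate 3 or Control replicate 1, and 5 without Control replicate 2, against 6 with all libraries. Apoa1 lost its call in those 4 cases (adjusted p between 0.057 and 0.12), and Apoa4 in the first 3 of them (adjusted p between 0.085 and 0.14). With no filter on low counts, Apoa1 and Apoa4 did not pass (adjusted p = 0.061 and 0.063), nor did Apoa4 in a fit of only the libraries compared (0.063). Without ApccKO replicate 2, Apoa4 fell by 2.46, and over all single libraries left out its change ranged from -2.46 to -1.32. Against NlecKO, the double knockout had log2 changes of -2.62 ± 0.71 for Apoa1 (adjusted p = 0.0051), -2.40 ± 0.67 for Apoa4 (adjusted p = 0.0061) and -2.38 ± 0.70 for Apoc3 (adjusted p = 0.0085). Without double knockout replicate 3 the changes were -3.74 for Apoa1, -3.10 for Apoa4 and -3.09 for Apoc3. Over all single libraries left out, the smallest changes were -2.21 for Apoa1, -2.02 for Apoa4 and -1.95 for Apoc3. Of the 31-base words in Apoa4 transcripts 64.5% also occur, on either strand, in Gm47528 or Gm10680. In these libraries Gm10680 had at most 14 estimated counts, against 9976 to 215729 for Apoa4, and no count is given here for Gm47528.

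**Figure D2:**
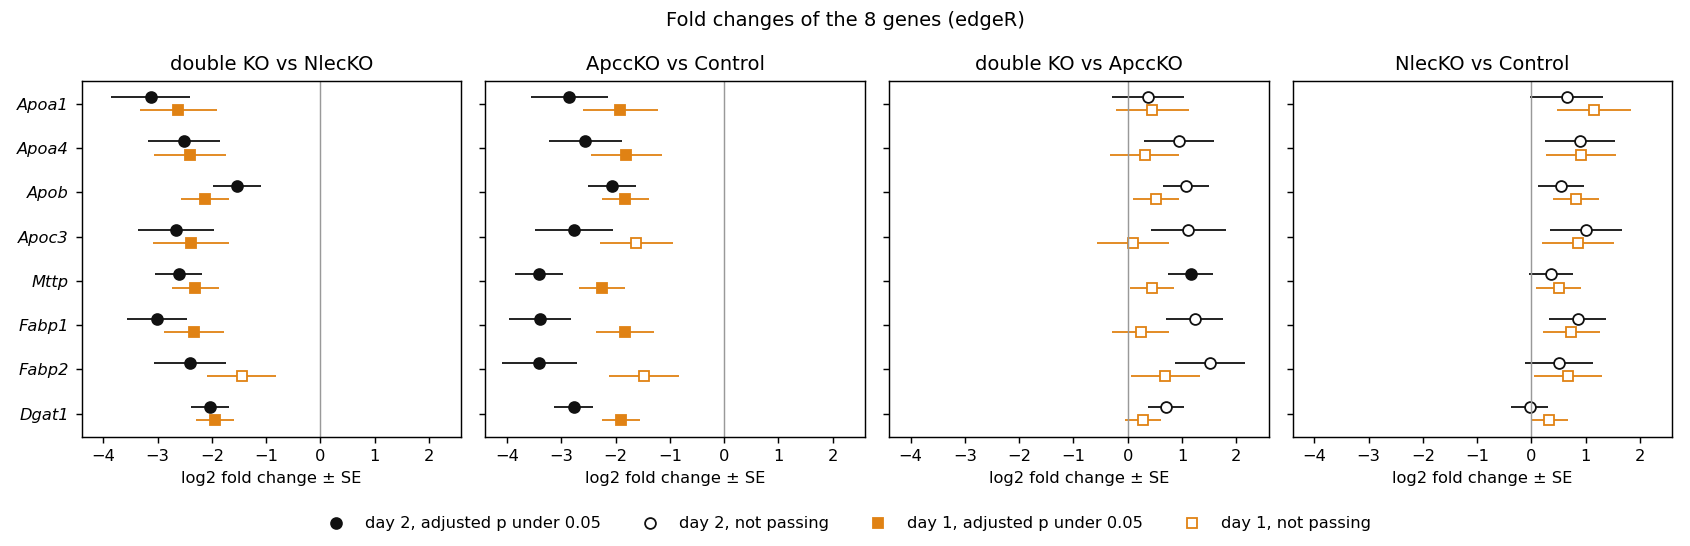
Log2 fold change ± SE of the 8 genes in the double knockout against NlecKO, ApccKO against Control, the double knockout against ApccKO and NlecKO against Control, on day 2 (circles) and day 1 (squares); filled symbols have an adjusted p under 0.05 in edgeR. All 16 day 2 symbols of the 2 Apc contrasts are filled and negative, and in the 2 Nle1 contrasts only Mttp on day 2 in the double knockout is filled.

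With both genes lost, levels were set against Control directly; this comparison shares its Control libraries with that of ApccKO. On day 2 the mean levels were 17.9% of Control for Apoa1, 21% for Mttp, 22.3% for Fabp1, 23.8% for Dgat1, 26.9% for Fabp2, 31.8% for Apoc3, 32.6% for Apoa4 and 50.4% for Apob. Of the 8 genes 6 fell, where 26.7% of all genes were called lower. Apob had a log2 change of -0.99 ± 0.43 (adjusted p = 0.061, edgeR) and Apoc3 of -1.65 with an adjusted p of 0.05, which did not pass. For 4 genes the 2 groups did not overlap (29.4% of all genes were wholly lower), and for the other 4 only Control replicate 2 lay within the double knockout range. Without that library all 8 genes fell. Leaving out Control replicate 1 or 3, or double knockout replicate 2 or 3, left 4 genes called, since Apoa4 and Fabp2 then no longer passed. Apoa4 also did not pass with no filter on low counts (adjusted p = 0.085) or in a fit of only the libraries compared (0.055). Without double knockout replicate 1, Apoa1 fell by 3.07 and Apoc3 fell by 2.25, while with all libraries Apoa1 fell by 2.48. Over all single libraries left out, the smallest changes were -2.13 for Apoa1 and -1.25 for Apoc3.

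On day 1, 4 of the 8 genes fell in the double knockout against Control, where 20.8% of all genes were called lower: Dgat1 fell by 1.61 ± 0.34 (adjusted p = 0.0011, edgeR), Mttp fell by 1.80 ± 0.42 (adjusted p = 0.0023), Apob fell by 1.30 ± 0.43 (adjusted p = 0.022) and Fabp1 fell by 1.59 ± 0.53 (adjusted p = 0.023). For these 4 genes the groups did not overlap, as for 23.6% of all genes. The remaining 4, Apoa1, Apoa4, Apoc3 and Fabp2, overlapped Control through double knockout replicate 3. Without that library 7 of the 8 genes passed, and Mttp fell by 2.40. Over all single libraries left out the change of Mttp ranged from -2.40 to -1.50. In a fit of only the libraries compared, Apob did not pass (adjusted p = 0.078). The number was 2 without double knockout replicate 1, without double knockout replicate 2 or without Control replicate 1.

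In crypts that keep Apc, means were higher with Nle1 loss for all 8 genes on day 1 and for 7 of 8 on day 2, and no gene passed. In NlecKO crypts on day 1 the mean was 126% of Control for Dgat1 and 223% for Apoa1, with the other 6 between. None of the 8 genes passed, where 2.48% of all genes were called in either direction. None had an unadjusted p under 0.05, and none passed by DESeq2. Log2 changes ranged from 0.33 to 1.16 with adjusted p of 0.34 to 0.64 (edgeR). Apoa1, Apoa4, Apob and Fabp1 did not overlap between the groups, all NlecKO libraries being higher, as for 9.61% of all genes. On day 2 the mean was 97.7% of Control for Dgat1 and 202% for Apoc3, and again none passed (15.6% of all genes), with none at an unadjusted p under 0.05 and none by DESeq2. Fabp1 alone did not overlap on that day, all NlecKO libraries being higher, as for 14.5% of all genes. The median log2 change over the 8 genes was 0.78 on day 1 and 0.60 on day 2. Without Control replicate 2, the lowest of its group, the day 2 median was 0.23. Over all single libraries left out the median ranged from 0.46 to 1.03 on day 1 and from 0.23 to 0.90 on day 2.

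In crypts that had lost Apc, the additional loss of Nle1 went with higher levels on day 2, of which 1 passed. Mttp rose by 1.16 ± 0.41 on the log2 scale (adjusted p = 0.037, edgeR), where 19.5% of all genes were called higher. Its level was 387, 276 and 363 CPM in double knockout and 122, 209 and 128 CPM in ApccKO libraries, which do not overlap. Apob and Dgat1 also did not overlap, with 211% and 163% of the ApccKO mean, and 29.9% of all genes lay wholly higher. Apob had a log2 change of 1.08 ± 0.43 (adjusted p = 0.062) and Dgat1 of 0.70 ± 0.34 (adjusted p = 0.12). Fabp2 had the largest difference, 1.52 ± 0.64 (adjusted p = 0.077), which was 2.21 without ApccKO replicate 2 (adjusted p = 0.029), and Apoa1 the smallest, 0.37 ± 0.67 (adjusted p = 0.71). Over all single libraries left out the difference of Fabp2 ranged from 1.16 to 2.21. Of the 8 genes 4 had an unadjusted p under 0.05 and were higher, as were 25.1% of all genes, and 4 passed by DESeq2, which called 20.5% of all genes higher. The call of Mttp was lost without ApccKO replicate 1 (adjusted p = 0.13), ApccKO replicate 3 (0.12), double knockout replicate 1 (0.095) or double knockout replicate 3 (0.09), and with no filter on low counts (0.073). Without ApccKO replicate 2 the number called was 3. On day 1 the 8 log2 changes lay between 0.09 and 0.70, all 8 genes overlapped between the groups, and none passed (10.6% of all genes), at an unadjusted p under 0.05 or by DESeq2.

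The test of whether the effect of Nle1 loss differed with Apc state gave no call among the 8 genes. On day 2 the difference of the log2 changes ranged from -0.28 to 1.0 (adjusted p of 0.42 to 0.99, edgeR), where 5.24% of all genes were called, and on day 1 from -0.77 to 0.02, where 0.0121% were. None of the 8 had an unadjusted p under 0.05 on either day, and none passed by DESeq2.

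Between the days, 1 of the 8 genes passed in ApccKO crypts and none in the other genotypes. In ApccKO crypts all 8 genes had a negative log2 difference of day 2 against day 1, with a median of -1.15. Fabp1 alone passed and fell by 1.71 ± 0.54 (adjusted p = 0.048, edgeR), where 5.49% of all genes were called lower; it was 66.5, 167 and 69.5 CPM on day 2 and 158, 507 and 324 CPM on day 1, and the days overlap. By DESeq2, 3 genes passed, where 8.55% of all genes were called lower. The call of Fabp1 was lost without ApccKO replicate 2 of day 1 (-1.27), replicate 3 of day 1 (-1.74), replicate 1 of day 2 (-1.49) or replicate 3 of day 2 (-1.51). It was also lost with no filter on low counts (adjusted p = 0.089), in a fit of only the libraries compared (0.15) and with a term for sex (0.052). In the double knockout the median difference was -0.48 and none of the 8 passed (6.49% of all genes in either direction). None passed in NlecKO, where the range was -0.54 to -0.03 and 0.0362% of all genes were called, or in Control, where the range was -0.39 to 0.21 and 0.163% were called. In these 3 genotypes none of the 8 had an unadjusted p under 0.05 and none passed by DESeq2. Apoa1 and Apob lay wholly lower on day 2 in NlecKO, as did 6.75% of all genes. The Apc effect itself, ApccKO against Control, differed between day 2 and day 1 by a median of -1.04 over the 8 genes, with none called (1.13% of all genes), 2 lower at an unadjusted p under 0.05 (7.31% of all genes) and none by DESeq2.

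On day 1, 3 Apc-lost libraries stood apart from the other Apc-lost libraries in a way the labels do not explain: ApccKO replicates 2 and 3 and double knockout replicate 3 held under 1 CPM of Gm8730, and they were also the highest of their groups for all 8 genes. Lct, the lactase gene, was at 454.6 and 294.8 CPM in these ApccKO libraries and 445.4 CPM in that double knockout library. Without the 3 libraries, which leaves 1 ApccKO library on day 1 whose spread is taken from the other groups, all 8 genes fell on day 1 in ApccKO against Control, with log2 changes of -3.41 for Apoa1, -3.27 for Apoa4, -3.19 for Apoc3, -3.07 for Mttp, -2.87 for Fabp1, -2.64 for Fabp2 and Apob, and -2.58 for Dgat1. All 8 also fell in the double knockout against NlecKO, with a median of -2.84. The difference between days in ApccKO then had a median of 0.12, with 5 of the 8 genes higher on day 2, and Fabp1 had a log2 difference of -0.66 (adjusted p = 0.77, edgeR). The difference between days in the double knockout had a median of 0.17, with 6 genes higher. The part of these libraries in the day difference was not tested further.

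Y-linked genes put 9 libraries as male and 15 as female. In a fit with a term for sex, the 8 genes were 0.30 to 0.83 higher on the log2 scale in males than in females, and none passed (edgeR, adjusted p of 0.18 to 0.61), where 0.254% of all genes were called. Apoc3 had the smallest unadjusted p, 0.014, with a difference of 0.83 ± 0.30, and no other tool was run on this difference. For each of the 8 genes every male library was above every female library in 6 of the 8 groups, and 7.56% of all genes were so in at least 6 groups. With the term for sex, the numbers of the 8 genes called lower with Apc loss on day 2 stayed at 8 in both Nle1 states.

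Ordered by mean CPM over the 8 groups, every member was highest in NlecKO on day 1 and lowest in ApccKO on day 2. Neighbours in this order were seldom separate. Apoa1 averaged 4631 ± 951 CPM in NlecKO on day 1, 3179 ± 577 CPM in NlecKO on day 2 and 2077 ± 627 CPM in Control on day 1 without overlap between these 3 groups, and no later step was free of overlap. For Apob the step between NlecKO on day 1 and day 2 was separate, for Fabp1 the step between NlecKO on day 2 (1921 ± 265 CPM) and Control on day 1 (1172 ± 338 CPM), and for Mttp and Dgat1 the step between Control on day 1 and the double knockout on day 1. Apoa4, Apoc3 and Fabp2 had no separate step.

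Levels of different genes can be set side by side only per transcript length, in TPM (a unit scaled to length and to library size) as the authors deposited them. On this scale Fabp1, Apoa4 and Apoa1 held the first 3 ranks among the 8 genes in every group, followed by Fabp2 and then Apoc3. In Control crypts on day 2 Fabp1 had 3893 ± 1987 TPM, Apoa1 2967 ± 1543, Apoa4 2843 ± 1642, Mttp 507 ± 203 and Apob 198 ± 87.6 TPM (SD, n = 3). In ApccKO crypts on day 2 Apoa4 was first with 561 ± 259 TPM, ahead of Apoa1 with 472 ± 303 and Fabp1 with 424 ± 237 TPM, a difference well within their SDs. Apob was last in every group but ApccKO on day 2, where Mttp was last with 55.1 ± 16.7 TPM. Apob made up 3.09% of the summed TPM of the 8 genes in the double knockout and 3.08% in ApccKO on day 2, against 1.39% in NlecKO and 1.47% in Control crypts.

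The 8 genes moved as a block between mice. Over the 24 libraries, the 28 pairs of members had Pearson correlations of log2 CPM between 0.925 and 0.99, with a median of 0.962. After the group means were taken away the correlations were still 0.913 to 0.981, with a median of 0.956, so mice of 1 group differed together in all 8. The points share genotype, day, library and the mix of cells in each preparation. The tested genes outside all lists that most resembled the mean of the 8 over the 24 libraries were H2-Bl (r = 0.995), H2-Q2 (0.994), Eci3 (0.994), Dhrs1 (0.993) and Gpt (0.993), among genes with a mean of at least 5 CPM. H2-Bl and H2-Q2 belong to a family with near-identical copies, between which reads can be shared.

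The 22 other enterocyte markers moved with the 8 genes. The mean log2 CPM of the 8 genes had a correlation of 0.995 with the mean of the 22 other enterocyte markers over the 24 libraries, which share the same preparations. All 22 of these markers fell in ApccKO against Control on day 2, with a median log2 change of -2.97, and all 22 in the double knockout against NlecKO, with a median of -2.46. Of all genes 29.4% were called lower in the first comparison and 22.2% in the second. Sis, the sucrase-isomaltase gene, fell by 4.96, Enpep (a brush border peptidase) fell by 4.23 and Khk (fructokinase) fell by 3.20 in ApccKO against Control. The sum of listed villus bottom markers, such as Reg3b and Reg3g, did not follow on day 2. It was 4619 to 8159 CPM in double knockout and 3935 to 7708 in NlecKO libraries. In ApccKO it was 3961 to 4884 CPM, and in Control libraries 3023 to 6129. On day 1 this sum was lower with Apc loss, and that of villus tip markers was lower on both days. Markers of several other cell types moved as well, though not of all. Stem cell markers summed to 2712 to 3113 CPM in double knockout, 5649 to 6285 in ApccKO, 1671 to 2177 in NlecKO and 2325 to 3065 in Control libraries on day 2. Immune cell markers summed to 214 to 438 CPM in double knockout, 212 to 343 in ApccKO, 644 to 983 in NlecKO and 827 to 1328 in Control libraries, and goblet cell markers to 5408 to 6857 CPM in double knockout, 2445 to 3227 in ApccKO, 11960 to 13810 in NlecKO and 11510 to 13440 in Control libraries. Paneth cell markers overlapped on day 2, with 8414 to 16320 CPM in double knockout and 9315 to 11140 in NlecKO libraries. They had 8995 to 9976 CPM in ApccKO and 6770 to 11700 in Control libraries. Sums of enteroendocrine and tuft cell markers were lower with Apc loss in both Nle1 states. That of proliferation markers was higher in ApccKO than in Control on both days. Between double knockout and NlecKO it overlapped on day 2. On day 1 it was higher in double knockout (1190 to 1732 CPM) than in NlecKO libraries (864.7 to 1074 CPM). The part of the cell mix in the falls of the 8 genes was not tested.

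**Figure D3:**
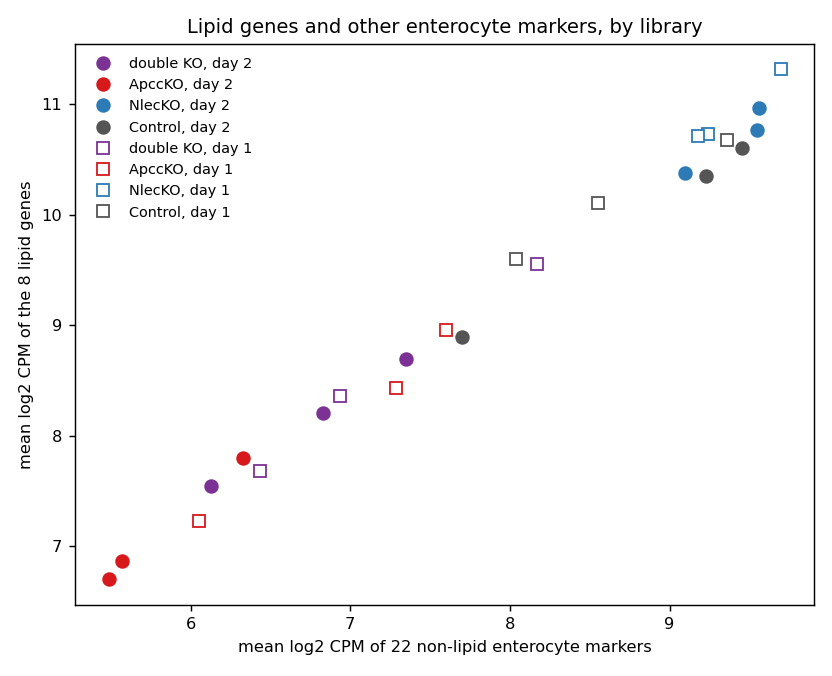
Mean log2 CPM of the 8 lipid genes against the mean log2 CPM of 22 non-lipid enterocyte markers, 1 point per library; colour gives the genotype, filled circles day 2 and open squares day 1. The 24 points lie close to 1 line (r = 0.995), with the ApccKO libraries of day 2 at the low end and NlecKO libraries at the high end.

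The members also differed in their level relative to the mean of those 22 markers within each library. Since these markers fell with Apc loss, most tested genes were higher on this scale in Apc-lost libraries, and the shares over all genes are given beside each count. On day 2 the log2 level of Apob relative to the markers was 2.61 to 3.15 in double knockout and 1.81 to 1.90 in NlecKO libraries, and 2.70 to 2.94 in ApccKO and 1.64 to 1.85 in Control libraries. Neither pair overlapped, so that Apob lay higher in both. Dgat1 also lay wholly higher in the double knockout than in NlecKO, as did 94.9% of all genes, and Apoa4 in ApccKO than in Control, as did 89.9% of all genes. Wholly lower on day 2 were Apoa1 and Fabp1 in the double knockout against NlecKO (0.61% of all genes) and Mttp in ApccKO against Control (0.864% of all genes). On day 1 Mttp was wholly lower in both pairs, at 1.42 to 1.55 in double knockout and 1.66 to 1.85 in NlecKO libraries, and at 1.18 to 1.51 in ApccKO and 1.71 to 2.16 in Control libraries (0.991% of all genes in the second pair). Apoa1 and Apoa4 were wholly lower that day in the double knockout against NlecKO, as were 0.677% of all genes. All other values overlapped, those of Apoc3 and Fabp2 in both pairs on both days. These ratios are descriptions, with no test, and were worked out after the levels had been seen.

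**Figure D4:**
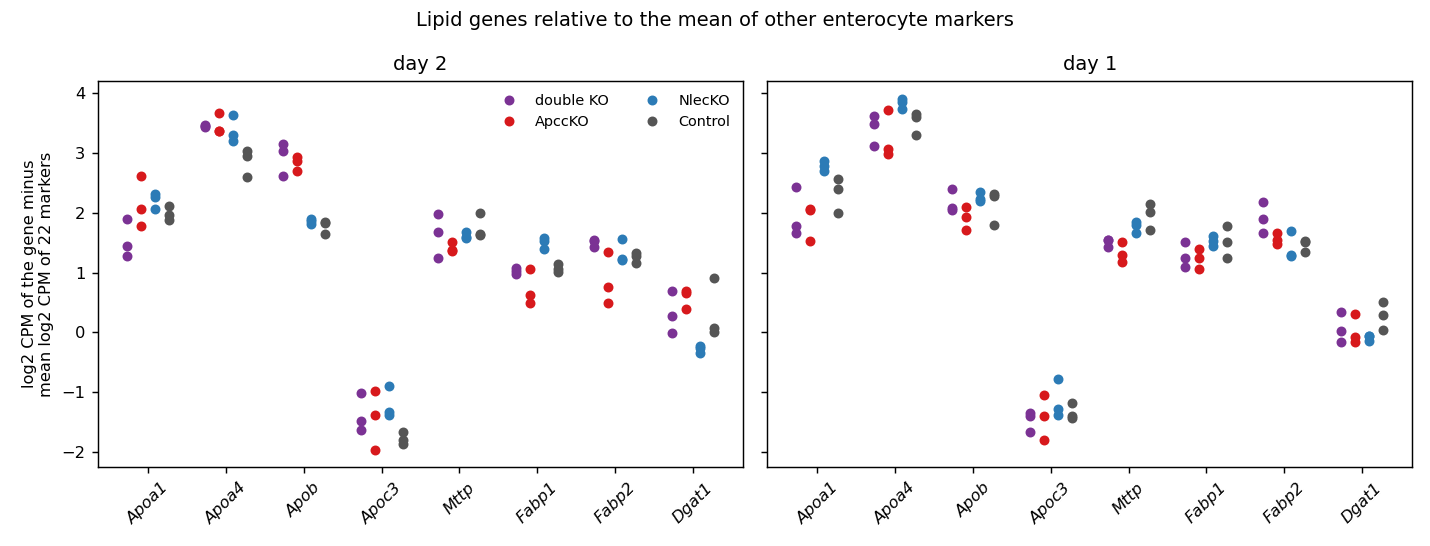
Log2 CPM of each lipid gene minus the mean log2 CPM of 22 non-lipid enterocyte markers in the same library, on day 2 (left) and day 1 (right), by genotype. On day 2 the Apob points of the Apc-lost groups (2.61 to 3.15) lie above all Apc-intact points (1.64 to 1.90). On this scale most genes did so, 94.9% of all genes in the double knockout against NlecKO and 89.9% in ApccKO against Control.

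The other genes of the pathway were read from lists of uptake, re-esterification, lipid droplets, chylomicron assembly, apolipoproteins, regulators and fatty acid oxidation. In ApccKO against Control on day 2, where 29.4% of all genes were called lower and 29.2% higher, 7 of 12 tested genes of uptake and activation fell and 1 rose. Slc27a4, a fatty acid transport protein with acyl-CoA synthetase activity, fell by 2.52 ± 0.36 (adjusted p = 1.2e-05, edgeR), and its relative Slc27a2 fell by 2.63 ± 0.34 (adjusted p = 4.6e-06). Npc1l1, the cholesterol importer, fell by 3.34 ± 0.48 (adjusted p = 1.5e-05) and Abcg5, part of the sterol exporter, fell by 3.49 ± 0.50 (adjusted p = 1.5e-05). Of 12 genes of re-esterification 10 fell and 2 rose. The acyltransferases moved apart: Gpat3, listed as Agpat9, fell by 3.00 ± 0.41 (adjusted p = 7.8e-06), while Gpat4, listed as Agpat6, rose by 0.46 ± 0.07 (adjusted p = 2.8e-05). Soat2, which esterifies cholesterol, fell by 2.61 ± 0.33 (adjusted p = 3.7e-06). Of 10 lipid droplet genes 7 fell and none rose, among them Plin2, a droplet coat protein, which fell by 1.24 ± 0.16 (adjusted p = 2.8e-06).

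Chylomicron assembly genes fell with Mttp and Apob. Of 11 tested genes 10 fell in ApccKO against Control on day 2 and none rose, with a median log2 change of -1.57. Of all genes 29.4% were called lower. Tm6sf2, needed for lipid loading of lipoproteins, fell by 3.02 ± 0.41 (adjusted p = 7.8e-06, edgeR). P4hb, the second subunit of the triglyceride transfer protein and a disulfide isomerase in its own right, fell by 1.47 ± 0.19 (adjusted p = 2.8e-06), Surf4, a cargo receptor for lipoprotein export, fell by 1.0 ± 0.13 (adjusted p = 1.7e-06), and A1cf, a cofactor of Apob mRNA editing, fell by 2.31 ± 0.15 (adjusted p = 4.8e-10). Other apolipoproteins were mixed: of 5 tested, Apoe fell by 0.68 ± 0.23 (adjusted p = 0.016) and Apoh fell by 2.22 ± 0.58 (adjusted p = 0.0027), and Apod rose by 2.05 ± 0.57 (adjusted p = 0.0046). Apoa2, Apoa5 and Apoc1 did not pass the filter on low counts. Apoa1, Apoc3 and Apoa4 neighbour each other in the genome (order from the GRCm38 annotation), and of 9 tested genes around them 4 rose and 2 fell, with a median of 0.10, beside 29.2% of all genes called higher and 29.4% lower. Pafah1b2 (0.56), Bud13 (0.44) and Zpr1, listed as Zfp259 (0.59), were higher in ApccKO crypts, and Pcsk7 was lower (-0.35).

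Regulators of the pathway fell too, though unequally. Of 19 tested, 15 fell and 1 rose in ApccKO against Control on day 2. Of all genes 29.4% were called lower and 29.2% higher in this comparison. Hnf4g, a nuclear receptor of the intestine, averaged 51.3 ± 11.4 CPM in double knockout, 33.5 ± 3.50 in ApccKO, 386 ± 42.5 in NlecKO and 444 ± 122 in Control crypts, a log2 change of -3.73 ± 0.27 (adjusted p = 4.1e-09, edgeR) in ApccKO. Its relative Hnf4a, whose family motif is marked in the sequences of Apoa4, Fabp2 and Apob above, averaged 860 ± 56.3 CPM in double knockout, 789.7 ± 53.3 in ApccKO, 802 ± 98.1 in NlecKO and 1022 ± 45.2 in Control crypts; it was named after its values were seen, and fell by 0.37 ± 0.08 (adjusted p = 8e-04) in ApccKO. Ppara, a receptor for fatty acids, averaged 6.60 ± 0.687 CPM in double knockout, 3.52 ± 1.01 in ApccKO, 40.3 ± 10.5 in NlecKO and 63.2 ± 9.0 in Control crypts, a log2 change of -4.16 ± 0.29 (adjusted p = 1.7e-09) in ApccKO. Fatty acid oxidation genes fell in 18 of 20 cases with none higher, among them Acaa2, a mitochondrial thiolase, which fell by 2.44 ± 0.20 (adjusted p = 1.4e-08). On day 1, with the same Control genotype, 16 of 19 regulators, 19 of 20 oxidation genes and 11 of 11 assembly genes fell in ApccKO against Control (25% of all genes).

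In the double knockout against NlecKO on day 2, 9 of 12 uptake genes fell and 1 rose, 10 of 12 re-esterification genes fell and 2 rose, 6 of 10 droplet genes fell and 2 rose, 9 of 11 assembly genes fell, 14 of 19 regulators fell and 2 rose, and 18 of 20 oxidation genes fell. Of all genes 22.2% were called lower and 25.6% higher in this comparison. Cd36, a fatty acid translocase, fell by 4.36 ± 0.83 (adjusted p = 4e-04, edgeR). Fitm2, which acts in droplet budding, rose by 0.34 ± 0.08 (adjusted p = 0.0016), and Apod rose by 3.35 ± 0.74 (adjusted p = 0.001).

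When Nle1 was lost on top of Apc, other genes of the pathway were also called on day 2 in the double knockout against ApccKO, where 19.5% of all genes were called higher and 15.4% lower; this comparison shares its ApccKO libraries with that of ApccKO and Control. Of 12 uptake genes 2 rose and 2 fell, of 12 re-esterification genes 2 rose, of 10 droplet genes 5 rose and 1 fell, of 11 assembly genes 4 rose, of 19 regulators 7 rose and 1 fell, and of 20 oxidation genes 8 rose and 2 fell. Of the 22 other enterocyte markers 3 rose (Sis, Alpi and Mep1b), with a median log2 change of 0.95 over the 22, beside 1.10 over the 8 lipid genes and 0.06 over all genes. Apobec1, the enzyme that edits Apob mRNA to its short intestinal form, rose by 1.34 ± 0.26 (adjusted p = 0.00048, edgeR), Tm6sf2 rose by 1.55 ± 0.39 (adjusted p = 0.0051) and Prap1, a lipid-binding protein that promotes lipoprotein assembly, rose by 1.96 ± 0.44 (adjusted p = 0.0024). Mogat2, which makes diacylglycerol for DGAT enzymes, rose by 1.35 ± 0.41 (adjusted p = 0.018), and Apoc2, the activator of lipoprotein lipase, rose by 1.72 ± 0.56 (adjusted p = 0.025). Slc27a2 fell by 1.43 ± 0.35 (adjusted p = 0.0039).

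**Figure D5:**
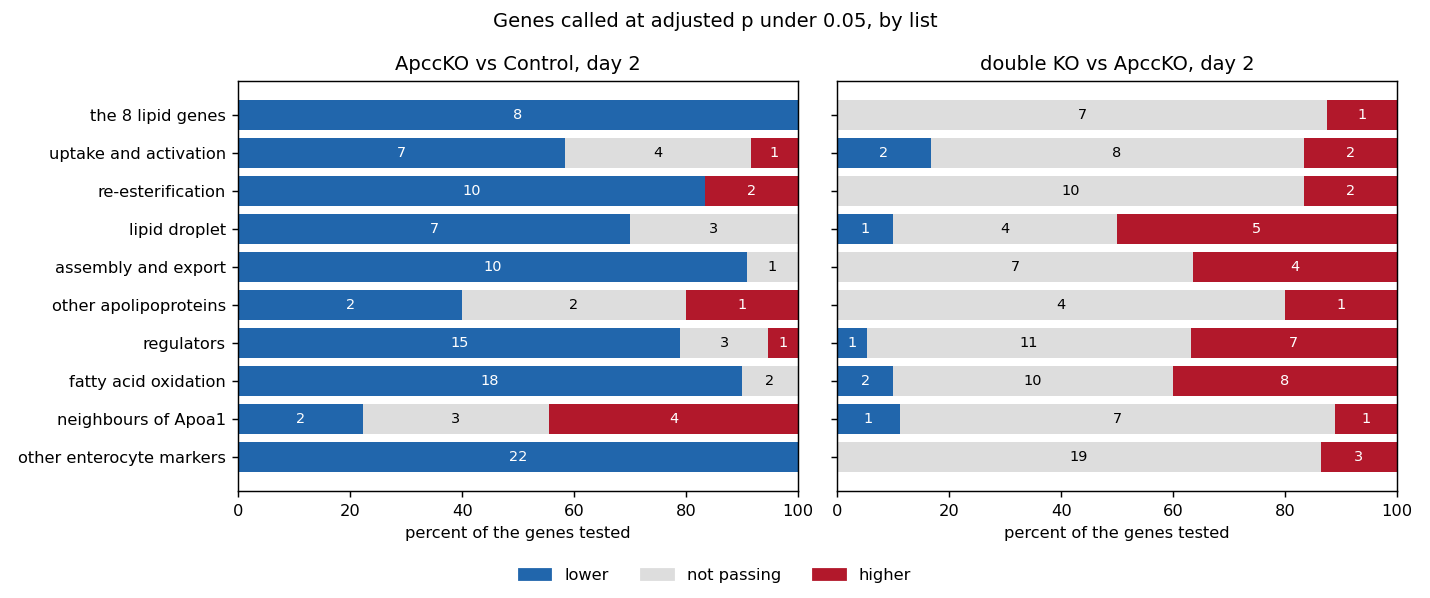
Share of tested genes in each list that were called lower, not passing or higher at an adjusted p under 0.05 (edgeR) on day 2, in ApccKO against Control (left) and the double knockout against ApccKO (right); numbers in the bars are genes. All 8 lipid genes and all 22 other enterocyte markers are lower on the left, and 1 of the 8 and 3 of the 22 are higher on the right. Of all genes, 29.4% were called lower on the left and 19.5% higher on the right.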

How the data were processed

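Crypt RNA of 24 mice was sequenced, and the labels gave each library's group, day and replicate number. The authors deposited estimated counts (expected counts per gene for 37620 Ensembl genes) and TPM, per the file headers; the submitters' processing notes name kallisto 0.43, the build mm9, DESeq2 and DESeq. Which annotation release served is not stated in those sources. The authors' table of normalised values was left out.

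Rounded estimated counts went into edgeR 4.0.16 (with limma 3.58.1, R 4.3.3), with these settings: minimum count of 10, TMM scaling, 1 mean per group over all 24 libraries, robust quasi-likelihood fit, Benjamini-Hochberg adjustment over 16552 genes and a threshold of 0.05. For log2 CPM the prior count was 2. The biological coefficient of variation was 17.6%, over totals of 17.86 to 26.47 M estimated counts per library. In this fit the p values rest on a spread between mice that is shared by all 8 groups of 3 mice and drawn towards that of other genes. They do not measure the spread within the 2 groups compared alone. The procedure was tested on simulated data in which genes varied independently of each other. In these libraries the 8 genes varied together within groups, which the simulation did not hold.

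The 8 genes and the lists of partner genes and cell markers were chosen with earlier results of these data known. The text names the 8 genes, Nle1 and Apc, up to 4 genes of each list with the smallest p among those called in a comparison, and the 5 genes most like the mean of the 8. Alternatives were DESeq2 1.42.0, edgeR with the size factors of DESeq2, dropping the filter (1 count), a filter of 2 CPM in 3 libraries, a replicate block, a fit to only the compared libraries, and each library left out in turn. A term for sex and leaving out 3 libraries were added after seeing the data. Replicate numbers were checked for pairing: deviations of same-numbered libraries had a median correlation of 0.017 over 84 pairs, and the numbers were not taken as pairs. Upstream sequences came from RefSeq (GRCm38.p6) and shared words from GENCODE M21 transcripts, neither used for quantification.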

Additional observations from a re-analysis of the deposited data

How the results depend on the processing

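All 8 genes stayed called lower in ApccKO against Control and in the double knockout against NlecKO on day 2 under every alternative run. On day 1 the number called lower in ApccKO against Control was 6, 8 by DESeq2, 4 with no filter, 5 with the replicate block, 7 with the stricter filter or the sex term, 8 without the 3 day 1 libraries low in Gm8730 and 3 to 7 when single libraries were left out; in the double knockout against NlecKO it was 7, and 7 to 8. For the double knockout against Control it was 4 on day 1, 2 to 7 with single libraries left out and 7 without the 3 day 1 libraries low in Gm8730; on day 2 it was 6, 8 by DESeq2, 8 with the stricter filter, 5 with no filter, 5 with only the libraries compared, 5 with the replicate block and 4 to 8 with single libraries left out. For the double knockout against ApccKO on day 2, 1 gene was called higher, 4 by DESeq2, 0 with no filter, 3 with only the libraries compared, 0 with the replicate block, 4 without the 3 libraries and 0 to 3 with single libraries left out. For ApccKO on day 2 against day 1, 1 gene was called, 3 by DESeq2, 0 with no filter, 0 with only the libraries compared, 0 with the replicate block, 0 with the sex term, 0 without the 3 libraries and 0 to 3 with single libraries left out. The replicate block ended the calls of Apoa4 on day 1 in ApccKO against Control (adjusted p = 0.057, edgeR) and on day 2 in the double knockout against Control (0.06), of Mttp in the double knockout against ApccKO on day 2 (0.058) and of Fabp1 between the days in ApccKO (0.066). The cause of these differences was not tested.

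In the double knockout against ApccKO on day 1, leaving out double knockout replicate 3 turned all 8 genes negative: the ranges with single libraries left out were -0.67 to 0.84 for Apoa1, -0.38 to 0.98 for Apoa4, -0.0233 to 0.87 for Apob, -0.61 to 0.64 for Apoc3, -0.20 to 0.50 for Dgat1, -0.25 to 0.68 for Fabp1, -0.21 to 1.07 for Fabp2 and -0.15 to 0.76 for Mttp. Apoc3 was -0.0222 with the replicate block. On day 2 Apoa1 ranged from -0.22 to 1.05. Dgat1 in NlecKO against Control on day 2 was 0.0039 with the stricter filter and -0.25 to 0.19 with single libraries left out. Of 1134 alternative values of single genes, 1031 kept direction and call, 42 gained a call, 45 lost one and 16 changed sign. This tally holds only the genotype comparisons of 2 groups, and Fabp1 between the days in ApccKO. The interactions, the other day differences and the change of the Apc effect between days are outside it, and signs changed there too. In the day 1 interaction, Apoa1 changed sign in 0 of 20 alternatives, Dgat1 in 8 and Fabp2 in 9.

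Replicate numbers did not pair the libraries: 23 of 84 same-numbered pairs had a correlation of deviations over 0.1, the range being -0.334 to 0.412. In comparisons of 2 groups the SE of Apoa1 reached 0.73 on the log2 scale, which limits what 3 mice a group can show.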

Other observations

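A few lipid genes outside the 8 rose with Nle1 loss in both Apc states, and those below are named because they were called. On day 2, 19.5% of all genes were called higher in the double knockout against ApccKO. In NlecKO against Control, 15.6% of all genes were called in either direction that day. Bscl2 (seipin, a protein of droplet formation) had 69.8, 68.5 and 74.1 CPM in double knockout, against 28.5, 32 and 30.2 CPM in ApccKO libraries on day 2. In NlecKO it had 48.5, 54.5 and 61.6 CPM, against 40.9, 41.9 and 35.6 CPM in Control libraries. The groups of each pair do not overlap, where 29.9% of all genes lay wholly higher in the first pair and 14.5% in the second. Bscl2 rose by 1.23 ± 0.09 in the double knockout against ApccKO (adjusted p = 2.7e-08, edgeR) and by 0.48 ± 0.09 in NlecKO against Control (adjusted p = 0.0019). On day 1 it rose by 0.91 in the double knockout against ApccKO (adjusted p = 6e-06) and by 0.40 in NlecKO against Control (adjusted p = 0.03). Of all genes, 10.6% and 2.48% were called in either direction in these 2 comparisons.

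Pparg, a nuclear receptor of lipid storage, had 19.5, 24.8 and 31.1 CPM in double knockout, against 8.67, 7.58 and 5.49 CPM in ApccKO libraries on day 2. Its level was 16.3, 13.1 and 16.9 CPM in NlecKO, against 8.61, 5.56 and 6.75 CPM in Control libraries. Pparg rose by 1.79 ± 0.24 in the double knockout against ApccKO (adjusted p = 1.4e-05, edgeR) and by 1.15 ± 0.24 in NlecKO against Control (adjusted p = 0.0033). Abhd5, the co-activator of droplet lipolysis, rose by 1.27 ± 0.15 (adjusted p = 4.3e-06) in the double knockout against ApccKO and by 0.88 ± 0.15 (adjusted p = 0.00072) in NlecKO against Control. All 3 genes lay above the median change of the 8 lipid genes in the double knockout against ApccKO, which was 1.10. Since they were picked for their calls in that same comparison, this does not set them apart from the 8.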
